A study of Mus musculus with 12 samples.

Results

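Expression of 10 niche adhesion and homing receptors, *Cxcr4*, *Itga4*, *Itga5*, *Itga6*, *Itgb1*, *Cd44*, *Selplg*, *Alcam*, *Icam1* and *Vcam1*, was examined in long-term hematopoietic stem cells (LT-HSCs). They were chosen by name, as receptors through which HSCs home to and stay in bone marrow (BM), and are 10 of the 48795 genes in the count table. All 10 were found once and passed the filter on low counts. LT-HSCs, sorted as CD150+ cells negative for Flt3 and CD48 within the Lin- Sca-1+ c-KIT+ fraction, with the highest (c-KIThi) or lowest (c-KITlo) surface c-KIT were compared between normal and chronic myelogenous leukemia (CML) mice. The CML mice were of the Scl-tTA BCR-ABL model, in which a transactivator driven by the Scl (Tal1) gene's regulatory sequence switches on BCR-ABL1 once doxycycline is withdrawn. According to the study's methods, BM of these donors was transplanted into irradiated CD45.1 recipients, controls were kept on doxycycline, and mice of both sexes were used. The protocol text of the deposited series instead calls the normal mice B6, so a B6 origin and doxycycline-treated carriers cannot be told apart for the normal cells. Each of the 4 groups has 3 libraries, and the c-KIT gates were set on normal LT-HSCs.

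HSCs home to the marrow along a gradient of CXCL12, which is sensed by the G protein-coupled receptor CXCR4. PSGL-1, encoded by *Selplg*, and CD44 let cells roll on selectins and bind hyaluronan on the vessel wall. Integrins, which are pairs of 1 α and 1 β chain, then hold the cells: α4β1 (VLA-4, from *Itga4* and *Itgb1*) binds VCAM-1 and fibronectin, α5β1 (VLA-5, from *Itga5*) binds fibronectin, and α6β1 (from *Itga6*) binds laminins. ICAM-1, VCAM-1 and ALCAM are immunoglobulin-type adhesion molecules, and ICAM-1 and VCAM-1 are best known as integrin ligands on endothelium and stroma. The data measure mRNA in sorted cells and say nothing of surface protein. In such bulk libraries a change in RNA per cell and a change in the mix of sorted cells cannot be told apart.

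When normal and CML cells were compared separately, 2 receptors passed the test, and both were higher in c-KITlo cells: *Icam1* in normal and *Itga5* in CML LT-HSCs. Their promoters, the 250 bases before the RefSeq start on the GRCm38.p6 assembly, are shown here because these 2 genes carry the calls. Capitals mark matches on either strand to the NF-κB motif GGNNNTTCC and, in *Icam1*, to the STAT motif TTCNNNGAA. Each is read 5′ to 3′ on the strand of its gene, chr9:21015690-21015939 on the plus strand for *Icam1* and chr15:103366792-103367041 on the minus strand for *Itga5*.
Icam1: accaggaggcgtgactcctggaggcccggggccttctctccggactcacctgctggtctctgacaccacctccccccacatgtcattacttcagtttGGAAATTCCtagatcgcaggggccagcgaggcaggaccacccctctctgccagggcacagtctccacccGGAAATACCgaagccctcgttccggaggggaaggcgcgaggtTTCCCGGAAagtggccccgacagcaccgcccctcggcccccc
Itga5: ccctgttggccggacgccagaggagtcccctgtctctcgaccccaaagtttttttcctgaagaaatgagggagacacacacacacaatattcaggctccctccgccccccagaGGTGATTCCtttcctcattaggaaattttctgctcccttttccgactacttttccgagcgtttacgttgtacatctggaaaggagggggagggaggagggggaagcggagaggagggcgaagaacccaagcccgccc

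*Icam1* held an NF-κB match that starts 153 bases before its start, a second one at 84 bases and a STAT match at 42 bases, and *Itga5* held a single NF-κB match at 137 bases. Promoter sequences were matched for 7 of the 10 receptors, all but *Itga6*, *Selplg* and *Vcam1*. NF-κB matches stood in 3 of these 7 (*Icam1*, *Itga5* and *Itgb1*), against 15.7% of the 32851 mouse promoters of the same length. A STAT match stood in *Icam1* alone of the 7, against 7.02% of all promoters. The hypoxia response letters ACGTG were in *Cd44* alone (16.6% of all promoters), the ETS letters GGAAG were in 5 of 7 (64.1%), and neither the E-box CACGTG (6.02%) nor the AP-1 letters TGANTCA (6.75%) were in any of the 7. The E-box holds the hypoxia response letters within it, and the NF-κB and STAT motifs can overlap GGAAG. A match describes letters and not a bound site.

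Library totals ran from 7753878 to 9843191 counts in normal c-KIThi, 14487608 to 31020852 in normal c-KITlo, 9730576 to 13213021 in CML c-KIThi and 17653931 to 20749935 in CML c-KITlo cells. Thus c-KIThi libraries were shallower than every c-KITlo library of either disease state. Genes under 1 kb of exons took 7.04% to 13.8% of counts in c-KIThi and 1.40% to 5.46% in c-KITlo libraries, so the sort and the make-up of the libraries moved together. All 10 LT-HSC marker genes were measured in each group, with summed levels of 790 to 1022 CPM (counts scaled to a common library total) in c-KIThi and 1978 to 3746 CPM in c-KITlo libraries. The 2 genes of the negative gates, *Flt3* and *Cd48*, summed to 2.02 to 20.1 CPM in normal c-KIThi and 0.0332 to 41.0 CPM in normal c-KITlo libraries. In CML they summed to 13.6 to 39.7 CPM in c-KIThi and 38.1 to 58.0 CPM in c-KITlo libraries. The part of cells outside the gate in the receptor values was not tested. Neutrophil granule genes (8 markers) summed to 1845 to 5862 CPM in normal c-KITlo replicate 3, CML c-KIThi replicate 3 and CML c-KITlo replicate 1, and to 44.8 to 980 CPM in the other 9 libraries. *Kit* mRNA was not higher in the c-KIThi cells: it had 132, 143 and 129 CPM in normal c-KIThi and 380.0, 675 and 33.6 CPM in normal c-KITlo cells, with normal c-KITlo replicate 3 below all others. In CML it had 57.6, 104 and 218 CPM in c-KIThi and 470.4, 494 and 565 CPM in c-KITlo cells. Neither difference of *Kit* passed the test (edgeR adjusted p = 0.254 in normal and 0.115 in CML), but over normal and CML cells together it was higher in c-KITlo cells (log2 1.72, SE 0.54, adjusted p = 0.0374).

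Per kb of exons, which allows genes to be compared roughly since all transcripts of a gene enter its length, the receptors covered a wide range. *Itgb1*, the β chain shared by the 3 α chains, led in normal c-KIThi cells with 65.0 ± 24.3 CPM per kb (SD, n = 3), followed by *Cxcr4* with 37.4 ± 14.4 and *Selplg* with 19.4 ± 4.89 CPM per kb. In the other 3 groups *Selplg* led and *Itgb1* was next, at 50.3 ± 16.3 and 39.8 ± 31.8 CPM per kb in normal c-KITlo, 53.8 ± 22.9 and 40.2 ± 16.5 in CML c-KIThi, and 71.7 ± 12 and 71.6 ± 3.43 in CML c-KITlo cells. The ranges of these leading pairs overlapped in every group. *Vcam1* and *Alcam* filled the last places in both normal groups, and *Vcam1* was last in both CML groups. *Vcam1* lay at 0.995 ± 0.977 CPM per kb or less in every group.

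Most neighbours in this order could not be separated. Among the 9 neighbouring pairs of each group, the libraries' ranges failed to overlap in 3 pairs in normal c-KIThi, 0 in normal c-KITlo, 2 in CML c-KIThi and 4 in CML c-KITlo cells. The place of *Itga5* varied most visibly: it held place 7 in normal c-KIThi, 5 in normal c-KITlo, 9 in CML c-KIThi and 3 in CML c-KITlo cells, where it had 27.3 ± 2.47 CPM per kb. *Cxcr4* went from place 2 in normal c-KIThi to place 7 in CML c-KITlo cells, where it had 4.66 ± 1.37 CPM per kb.

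**Figure D1:**
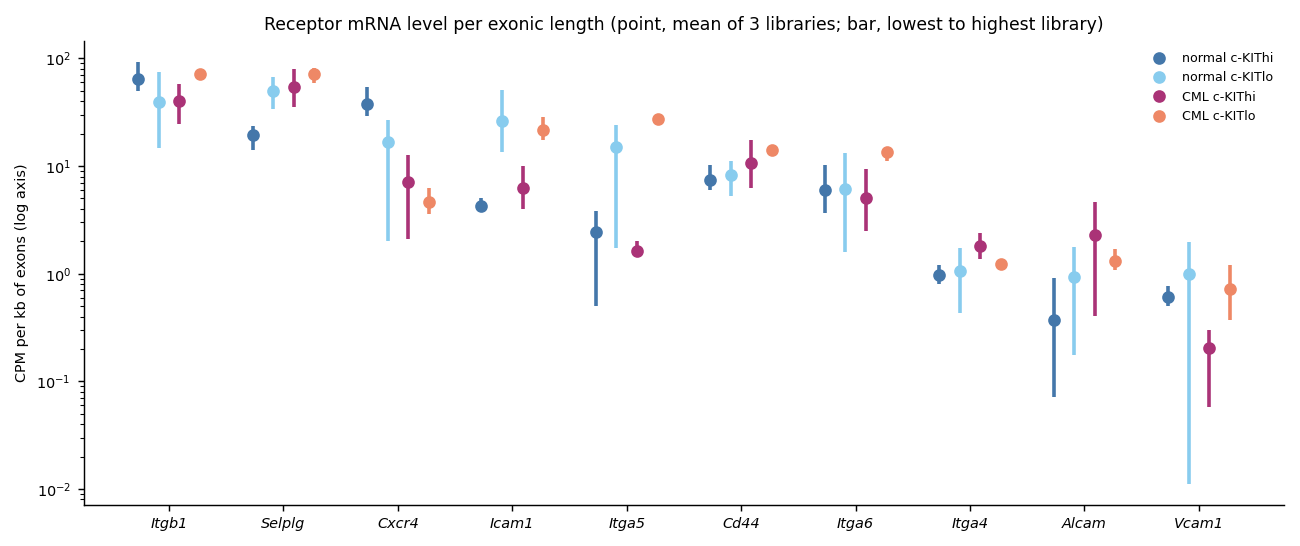
Level of each receptor's mRNA in CPM per kb of exonic length (log axis) in the 4 groups; points are means of 3 libraries and bars run from the lowest to the highest library. *Itgb1* is highest in normal c-KIThi cells, *Selplg* has the highest mean in the other 3 groups and *Vcam1* the lowest in both CML groups, and long bars in normal c-KITlo cells show how far its libraries differ.

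The first comparison asks how the receptors differ between c-KITlo and c-KIThi LT-HSCs of normal mice. *Icam1*, whose product binds β2 integrins, rose: it had 16.3, 18 and 21.9 CPM in the 3 c-KIThi libraries and 221, 64.1 and 58.5 CPM in the 3 c-KITlo libraries. The groups did not overlap, and the highest value, in c-KITlo replicate 1, was more than 3 times the other c-KITlo values. The fitted difference was log2 2.61 (SE 0.59), or 6.11-fold (edgeR adjusted p = 0.0279). It was 1 of 10 receptors called, higher, while 3.1% of the 14676 tested genes were called higher and 6.5% in either direction (455 higher and 499 lower, or 322 and 547 with libraries scaled by medians of ratios). That background moved widely, with 0 calls among all genes without c-KIThi replicate 1 or 2, 23 without c-KITlo replicate 1, 1849 without c-KITlo replicate 3, 2 with limma-voom and 2940 with DESeq2. The call was lost without c-KITlo replicate 1 (log2 1.73, adjusted p = 0.0937) without any 1 of the normal c-KIThi libraries (adjusted p = 0.0756 to 0.102) and, narrowly, without any 1 of the CML c-KITlo libraries that share the fit's spread (0.0515 to 0.0544). It was also lost with the replicate block, and with each library's trend on gene length removed (log2 3.77, adjusted p = 0.0834). The same held with only these 2 groups in the fit (adjusted p = 0.132) and with limma-voom (0.191). Libraries are unstranded, and 11.7% of the exonic bases of *Icam1* also belong to the antisense gene *Gm47079*, where reads cannot be assigned.

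*Selplg* and *Itga5* had higher means in normal c-KITlo cells without passing the test. *Selplg* had 60.1, 86.6 and 101 CPM in c-KIThi and 215, 145 and 285 CPM in c-KITlo libraries, again with no overlap (log2 1.38, SE 0.40, edgeR adjusted p = 0.0583, and 0.0329 without c-KITlo replicate 2). *Itga5* had 2.46, 14.9 and 19.0 CPM in c-KIThi and 93.9, 118 and 8.63 CPM in c-KITlo libraries (log2 2.60, SE 0.85, edgeR adjusted p = 0.0808). Here 2 of 3 c-KITlo libraries stood far above all c-KIThi libraries and replicate 3 fell within their range. Replicate 3 is also the library with the most neutrophil granule RNA (5862 CPM) and the least *Kit*; the part of this in the result was tested only by leaving libraries out. Without it the change of *Itga5* was log2 3.15 (adjusted p = 0.0136), and without the 3 libraries richest in neutrophil RNA it was 3.0 (adjusted p = 0.0474), a setting added after the data were seen. In that setting *Icam1* had log2 2.82 (adjusted p = 0.0333).

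*Cxcr4* was the receptor whose mean differed most in the other direction in normal cells. It had 52.6, 52.6 and 97.6 CPM in c-KIThi and 3.62, 39.6 and 48.5 CPM in c-KITlo libraries. The groups did not overlap, but they nearly touched, and c-KITlo replicate 1 lay far below the rest (log2 fold change -1.15, SE 0.86, edgeR adjusted p = 0.44). In all, 2 receptors were higher with no overlap and 1 was lower, against 11% and 12.6% of all tested genes. The remaining receptors overlapped. The median over all 10 receptors was 0.43 on the log2 scale, beside 0.16 for all genes tested.

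**Figure D2:**
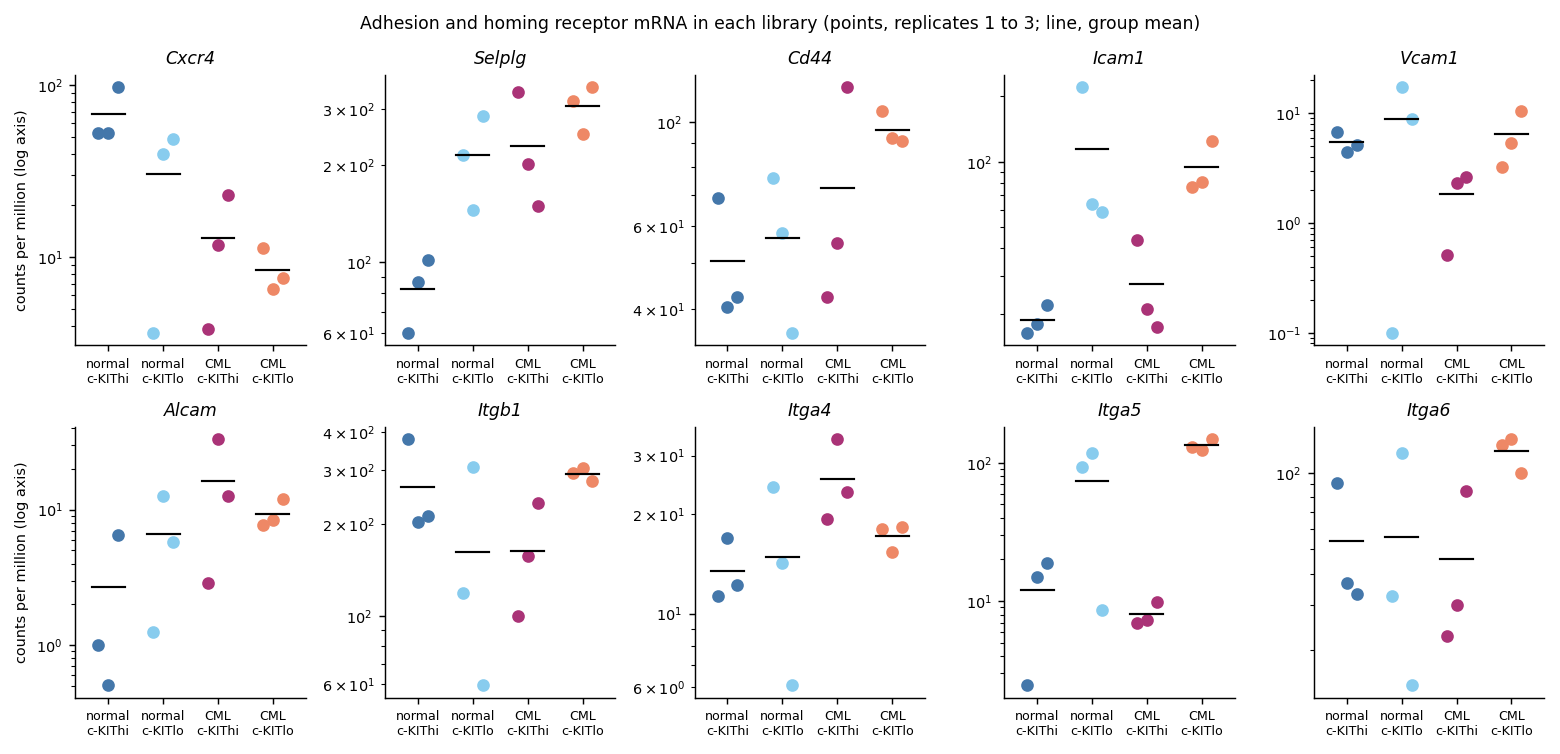
CPM of each receptor in each of the 12 libraries (log axis, own scale per gene); points are libraries and lines are group means. *Icam1* lies at 16.3 to 21.9 CPM in normal c-KIThi and 58.5 to 221 CPM in normal c-KITlo cells, and *Itga5* at 6.99 to 9.88 CPM in CML c-KIThi and 125 to 148 CPM in CML c-KITlo cells.

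The second comparison puts the same question to CML LT-HSCs. *Itga5*, the fibronectin-binding α5 chain, rose from 6.99, 7.28 and 9.88 CPM in c-KIThi to 131, 125 and 148 CPM in c-KITlo libraries. Neither group spread by more than a small part of the gap between them. The fitted difference was log2 4.07 (SE 0.90), or 16.7-fold (edgeR adjusted p = 0.0215), the largest fitted change of the 10 receptors in any of the 4 comparisons of groups. It was again 1 of 10 receptors called, higher, against 2.91% of tested genes called higher and 8.44% in either direction. Here too the background moved, with 0 calls among all genes without CML c-KIThi replicate 2 or CML c-KITlo replicate 1 or 2, 2 without CML c-KITlo replicate 3, 3186 with DESeq2 and 6282 with limma-voom. The call did not hold when any 1 of the 6 CML libraries was left out (log2 3.99 to 4.19, adjusted p = 0.0618 to 0.110). Nor did it hold with the replicate block, or with each library's trend on gene length removed (log2 3.21, adjusted p = 0.208). It held when any 1 normal library was left out (adjusted p = 0.0039 to 0.038), and without the 3 libraries richest in neutrophil RNA (log2 4.21, adjusted p = 0.0472).

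The other integrin chains were less clearly separated. *Itga6*, which pairs with β1 or β4 to bind laminins, had 22.7, 30.0 and 84.4 CPM in c-KIThi and 129, 136 and 99.6 CPM in c-KITlo libraries (log2 1.41, SE 0.74, edgeR adjusted p = 0.245). *Itgb1* had 100.2, 158 and 234 CPM in c-KIThi and 294, 305 and 277 CPM in c-KITlo libraries (log2 0.83, edgeR adjusted p = 0.344). *Itga4* had 19.3, 33.6 and 23.3 CPM in c-KIThi and 18, 15.3 and 18.2 CPM in c-KITlo libraries (log2 fold change -0.57, edgeR adjusted p = 0.627), and 8.04% of its exonic bases also belong to *Cerkl* on the other strand. None of the 3 overlapped between groups, yet none passed the test. In CML c-KITlo cells the values of *Itga5* and *Itga6* lay above and those of *Itga4* below the c-KIThi libraries, and a difference between the chains was not tested.

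*Icam1* and *Vcam1* were also higher in all CML c-KITlo libraries than in any CML c-KIThi library. *Icam1* had 43.9, 21 and 17.4 CPM in c-KIThi and 76.3, 81.1 and 125 CPM in c-KITlo libraries (log2 1.78, SE 0.57, edgeR adjusted p = 0.0708, and 0.0291 to 0.0494 without any 1 of the normal c-KITlo libraries). *Vcam1*, the partner of α4β1, had 0.511, 2.32 and 2.64 CPM against 3.27, 5.42 and 10.6 CPM (log2 1.82, SE 1.36, edgeR adjusted p = 0.419), and its c-KIThi libraries held just 6 to 24 counts each. In all, 5 receptors were higher and 1 was lower with no overlap, a share to be read against the 27.6% and 23.6% of all tested genes that did so in CML. The median over the 10 receptors was 0.62 on the log2 scale, beside 0.05 for all genes.

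The receptors of rolling and of chemotaxis did not pass the test by c-KIT level in CML. *Selplg* had 339, 201 and 149.7 CPM in c-KIThi and 317, 251 and 351 CPM in c-KITlo libraries (log2 0.41, edgeR adjusted p = 0.530), with wide overlap. *Cd44* had 42.5, 55.3 and 119 CPM against 105, 92.2 and 91.0 CPM (log2 0.41, edgeR adjusted p = 0.603). *Cxcr4* had 3.83, 11.8 and 22.8 CPM against 11.2, 6.50 and 7.56 CPM (log2 fold change -0.60, edgeR adjusted p = 0.689). *Alcam*, which binds CD6 and itself, was sparse and scattered, at 2.90, 33.1 and 12.6 CPM against 7.76, 8.32 and 12 CPM.

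**Figure D3:**
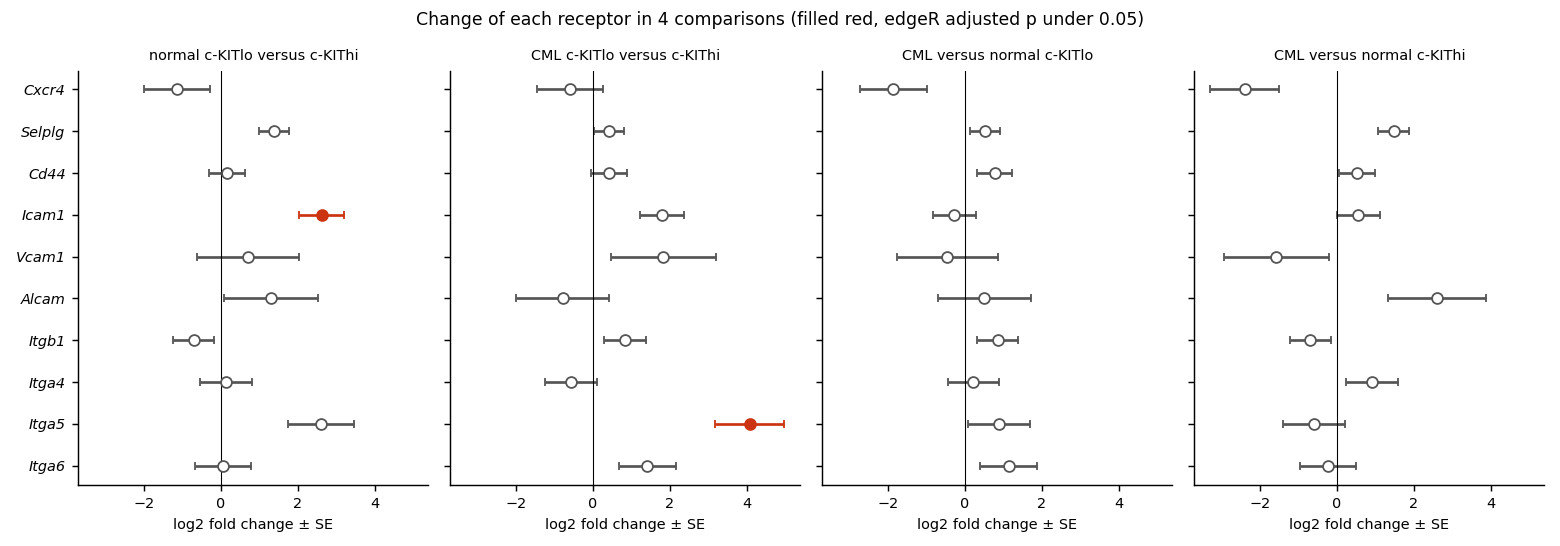
Log2 fold change with its SE for the 10 receptors in the 4 comparisons of groups, from the edgeR fit of all 12 libraries; filled red points have an adjusted p under 0.05. The filled points are *Icam1* at 2.61 in normal and *Itga5* at 4.07 in CML c-KITlo versus c-KIThi cells, and no point is filled in the 2 comparisons of CML with normal.

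The next 2 comparisons set CML against normal cells of the same c-KIT level, and no receptor passed the test in either. With edgeR, 0 of 10 receptors were called in c-KITlo cells, where 0.0954% of tested genes were called, and 0 of 10 in c-KIThi cells, where 0.0204% were. At an unadjusted p under 0.05 there were 0 in c-KITlo and 2 in c-KIThi cells, *Selplg* and *Cxcr4*, and neither DESeq2 nor limma-voom called any receptor in either comparison. The share of all genes called rested on 1 library and on the tool: without normal c-KITlo replicate 2 there were 910 calls in c-KITlo cells in place of 14, and DESeq2 made 571 calls in c-KITlo and 191 in c-KIThi cells, where edgeR made 3. The number of receptors called remained 0 in each of these.

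*Cxcr4* was lower in CML c-KIThi cells, at 3.83, 11.8 and 22.8 CPM, than in normal c-KIThi cells, at 52.6, 52.6 and 97.6 CPM. The groups did not overlap (log2 fold change -2.40, SE 0.89, edgeR unadjusted p = 0.0190, adjusted p = 0.682). In c-KITlo cells it had 11.2, 6.50 and 7.56 CPM in CML and 3.62, 39.6 and 48.5 CPM in normal libraries, where a single low normal library, replicate 1, made the groups overlap (log2 fold change -1.86, SE 0.87, edgeR adjusted p = 0.373). All 6 CML libraries thus held 3.83 to 22.8 CPM, while 5 of the 6 normal libraries held 39.6 CPM or more.

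*Selplg* had the opposite order in c-KIThi cells, from 60.1, 86.6 and 101 CPM in normal to 339, 201 and 149.7 CPM in CML libraries. The groups did not overlap (log2 1.48, SE 0.40, edgeR unadjusted p = 0.0029, adjusted p = 0.557). In c-KITlo cells the libraries overlapped, at 215, 145 and 285 CPM in normal and 317, 251 and 351 CPM in CML (log2 0.51, edgeR adjusted p = 0.627). The normal c-KIThi group was therefore the lowest of the 4 for this gene.

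The remaining receptors differed in both directions between CML and normal cells. *Itga4* had 11.3, 16.9 and 12.2 CPM in normal and 19.3, 33.6 and 23.3 CPM in CML c-KIThi libraries, with no overlap (log2 0.91, SE 0.67, edgeR adjusted p = 0.894). *Vcam1* had 6.79, 4.43 and 5.10 CPM in normal c-KIThi cells, above its 3 CML c-KIThi libraries (log2 fold change -1.58, SE 1.36, edgeR adjusted p = 0.928). Together with *Selplg* and *Cxcr4* these made 2 receptors higher and 2 lower with no overlap in c-KIThi cells, against 7.97% and 6.36% of tested genes. In c-KITlo cells *Itga5* and *Cd44* were higher in all CML than in any normal library, 2 of 10 beside 12.3% of tested genes. *Cd44* had 76.2, 57.9 and 35.6 CPM in normal against 105, 92.2 and 91.0 CPM in CML (log2 0.77, SE 0.46, edgeR adjusted p = 0.508), and *Itga5* differed by log2 0.88 (SE 0.80, edgeR adjusted p = 0.695). *Alcam* had 1.01, 0.506 and 6.50 CPM in normal c-KIThi cells, where 2 libraries held 7 and 4 counts, and a log2 difference of 2.59 (SE 1.28, edgeR adjusted p = 0.763) in CML.

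Spread between replicates set much of what could be seen. The normal c-KITlo libraries differed widely for *Itgb1* (119, 308 and 59.5 CPM), *Itga6* (32.6, 119.7 and 14.5 CPM), *Vcam1* (0.0995, 17.4 and 8.95 CPM) and *Alcam* (1.26, 12.7 and 5.82 CPM). In each of these replicate 2 was highest, while the lowest was replicate 3 for *Itgb1* and *Itga6* and replicate 1 for *Vcam1* and *Alcam*. Replicate 1 was the deepest library (31020852 counts), yet it held 1 count of *Slamf1* and 0 of *Itgb7*. Replicates 2 and 3 held 1180 and 947 of *Slamf1*, and 1055 and 515 of *Itgb7*. Of the 3 libraries, replicate 1 had the highest *Icam1* (221 CPM) and the lowest *Cxcr4* (3.62 CPM). The CML c-KITlo libraries lay closer together, at 292 ± 14.0 CPM for *Itgb1* and 122 ± 19.3 CPM for *Itga6* (SD, n = 3). Normal c-KIThi cells had 379, 203 and 213 CPM of *Itgb1* and 91.5, 36.7 and 33.1 CPM of *Itga6*, with replicate 1 highest for both. *Cd44* had 68.9, 40.5 and 42.3 CPM in these libraries, again highest in replicate 1.

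Whether the change from c-KIThi to c-KITlo differed between CML and normal was tested as an interaction, and no receptor passed (edgeR, 0 of 10, with 0 at an unadjusted p under 0.05, and 0 by limma-voom and DESeq2). Of the 14676 tested genes 0% were called, while DESeq2 called 291 and edgeR 416 without normal c-KITlo replicate 2. *Itga5*, called in CML alone, had a difference between the 2 changes of log2 1.47 (SE 1.14, adjusted p = 0.658), and *Icam1*, called in normal alone, one of -0.83 (SE 0.79, adjusted p = 0.732). Neither is therefore shown to respond differently in the 2 disease states. The smallest unadjusted p was that of *Itgb1*, whose mean was lower in normal and higher in CML c-KITlo cells, with a difference of 1.54 (SE 0.76, unadjusted p = 0.064, adjusted p = 0.464).

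With c-KITlo set against c-KIThi over normal and CML cells together, a comparison chosen after the data were seen, 3 of the 10 receptors were higher with edgeR: *Itga5* (log2 3.33, SE 0.62, adjusted p = 0.0037), *Icam1* (log2 2.20, SE 0.41, adjusted p = 0.0038) and *Selplg* (log2 0.90, SE 0.28, adjusted p = 0.0365). The background is high here, since 10.3% of the 14676 tested genes were called higher and 12.5% lower. *Itga5* was called in all 20 alternatives (adjusted p up to 0.0197). *Icam1* was called in 19 of 20, the exception being removal of the length trend (log2 2.37, adjusted p = 0.0584). *Selplg* was called in 8 of 20: it lost its call without CML c-KIThi replicate 2 or 3, any 1 CML c-KITlo library, normal c-KIThi replicate 1 or 2, or normal c-KITlo replicate 1 (adjusted p = 0.0567 to 0.111), with the replicate block (0.071), with libraries thinned to equal depth, with the length trend removed (adjusted p = 0.299), and without the 3 neutrophil-rich libraries (log2 0.56, adjusted p = 0.215).

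With CML set against normal over both c-KIT levels, also chosen after the data were seen, 0 of 10 receptors passed with edgeR, 2 had an unadjusted p under 0.05, and 0.252% of tested genes were called. These 2 were *Cxcr4* (log2 fold change -2.13, SE 0.62, unadjusted p = 0.0049, adjusted p = 0.228) and *Selplg* (log2 0.99, SE 0.28, unadjusted p = 0.0037, adjusted p = 0.210). DESeq2 called both, with adjusted p of 0.0313 and 0.0401, and limma-voom called neither. Without any 1 library the edgeR adjusted p of *Cxcr4* was 0.0659 to 0.512. Whether these 2 receptors passed thus depended on the tool. The averaged comparisons use the same libraries as those above and add no independent samples.

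Across the 12 libraries some receptors had like profiles, given here as descriptions since groups, depth and sort are shared by these points. On log2(CPM + 1), *Itgb1* and *Itga6* had a Pearson r of 0.90, *Itga5* and *Icam1* one of 0.78, and *Cd44* and *Itga6* one of 0.78. Among the 3 tested genes most like *Itga5* was *Uba1* (r = 0.99), and those most like *Icam1* were *Pomgnt2*, *Anxa7* and *Zgpat* (r = 0.97 each). *Selplg* was most like *Gm7901* (r = 0.96), *Dusp2* and *Junb* (r = 0.93 each). In relation to its β1 partner, *Itga5* per kb was 0.00536 to 0.0737 of *Itgb1* in normal c-KIThi, 0.12 to 0.651 in normal c-KITlo, 0.0349 to 0.0577 in CML c-KIThi and 0.339 to 0.443 in CML c-KITlo libraries. That ratio was higher in every c-KITlo library than in every c-KIThi library of either disease state. This includes normal c-KITlo replicate 3, whose *Itga5* level was low (8.63 CPM) and whose *Itgb1* level was the lowest of the 12 libraries (59.5 CPM). A low *Itgb1* raises the ratio, and how often ratios of other genes separate in this way was not tested. The ratio of *Itga4* to *Itgb1* did not exceed 0.0622 in any library. The length used for *Itga4* joins the exons of its 5 transcripts, 13978 bases against 4081 for *Itgb1*. A shorter *Itga4* transcript in these cells would give a higher ratio.

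The genes that act with these receptors were followed in lists typed from general knowledge, first in the 5 comparisons without averaging. Their counts are to be read against the 3.1% of tested genes called higher and 3.4% called lower in normal and the 2.91% and 5.53% in CML c-KITlo cells, and the lists were not refitted under the alternatives. Of 14 other integrin chains tested, 1 rose in CML c-KITlo versus c-KIThi cells and none was called in normal cells. It was *Itga2b*, the αIIb chain of the platelet fibrinogen receptor that also marks early HSCs, with 227, 285 and 319 CPM in c-KIThi and 2067, 2081 and 1801 CPM in c-KITlo libraries (log2 2.84, SE 0.75, edgeR adjusted p = 0.0383). In normal cells *Itga2b* had 148, 308 and 217 CPM against 75.8, 968 and 178 CPM, with no order. The β2 chain *Itgb2*, whose αLβ2 form binds ICAM-1, had a log2 difference of 2.24 in normal (edgeR adjusted p = 0.0787) and 1.78 in CML cells (0.129). Its partner *Itgal* did not exceed 13.6 CPM in any library, and *Itgav* reached 120.7 CPM in 1 library, CML c-KIThi replicate 3, and 20.5 CPM or less in the others.

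Of 27 integrin adaptors and activators tested, 3 were called higher in CML and 1 in normal c-KITlo cells, and none was called lower. *Cd82*, a tetraspanin that organises integrins in the membrane, rose in both, from 11.1, 15.3 and 14.8 to 429, 208 and 179 CPM in normal (log2 4.31, edgeR adjusted p = 0.0072) and from 41.7, 27.4 and 23.2 to 108, 116 and 144 CPM in CML (log2 2.0, adjusted p = 0.0177). *Fermt3*, which encodes kindlin-3, an activator that binds β chain tails in blood cells, rose in CML (log2 1.51, adjusted p = 0.0301), as did *Rassf5*, the RAP1 effector RAPL (log2 1.85, adjusted p = 0.0289). *Tln1* (log2 0.56, adjusted p = 0.647) and *Rasgrp2* (log2 fold change -1.14, adjusted p = 0.289), which encode talin-1 and the RAP1 exchange factor CalDAG-GEFI, did not pass the test in CML. Whether these numbers differ between CML and normal was not tested.

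In the CXCL12-CXCR4 axis, 20 genes were tested. In normal c-KITlo cells 1 rose and 1 fell, and in CML 3 rose and 2 fell. The higher ones were *Vav1*, a RAC exchange factor (log2 1.81 in normal, adjusted p = 0.0409, and 2.24 in CML, adjusted p = 0.0181), and in CML *Grk2* (log2 2.30, adjusted p = 0.0284) and *Grk6* (log2 2.13, adjusted p = 0.0340), kinases that desensitise G protein-coupled receptors. The lower ones were *Mif*, an alternative CXCR4 ligand (log2 fold change -2.59 in normal, adjusted p = 0.0397, and -2.97 in CML, adjusted p = 0.0220), and in CML *Hmgb1* (log2 fold change -2.03, adjusted p = 0.0153). *Mif* and *Hmgb1* have near-identical processed copies in the genome, so their counts are uncertain. *Cxcl12* was at 0 in 9 libraries and at 3.92 CPM or less in the others, and *Ackr3*, the other CXCL12 receptor, was at 0 in all 12.

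The remaining lists were read in the same way. None of 13 genes of selectin ligand glycosylation, which makes PSGL-1 able to bind selectins, passed the test in any of these 5 comparisons (edgeR), and *Fut7*, its α1,3-fucosyltransferase, ranged from 0.0332 to 37.9 CPM. Of 23 other adhesion and homing receptors tested, 3 were called higher and 1 lower in normal c-KITlo cells, beside 3.1% and 3.4% of tested genes. In CML c-KITlo cells 1 was called higher, beside 2.91%. Among them, in normal c-KITlo cells *Esam* (log2 1.68, adjusted p = 0.0430) and *F11r* (log2 1.39, adjusted p = 0.0354), both junctional adhesion molecules, rose while the sialomucin *Spn* fell (log2 fold change -1.77, adjusted p = 0.0243). *Cd34* and *Cd164*, which encode sialomucins, did not pass the test in any of the 5. Of 10 ligands of the receptors tested, 1 was called in these comparisons: the proteoglycan core *Srgn*, which carries chains that bind CD44, fell in CML c-KITlo cells (log2 fold change -2.34, adjusted p = 0.0209). In the comparisons of CML with normal cells at 1 c-KIT level, and in the interaction, no gene of these 6 lists passed.

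More genes of the lists passed in the averaged comparison of c-KITlo with c-KIThi cells, where 10.3% of all tested genes were called higher and 12.5% lower. Called higher were 3 of 14 other integrin chains (*Itga2b*, *Itga3* and *Itgb2*), 7 of 27 adaptors and activators, 7 of 20 genes of the CXCL12-CXCR4 axis, 1 of 13 of glycosylation (*Tpst2*, a tyrosine sulfotransferase) and 1 of 10 ligands (the hyaluronidase gene *Hyal2*). Called lower were 2 adaptors and activators (*Cd47* and *Tln2*), 4 of the axis (*Mif*, *Hmgb1*, *Rgs1* and *Rgs18*) and 1 ligand (*Srgn*). Of the 23 other adhesion and homing receptors tested, 8 were called higher and 2 lower. In the averaged comparison of CML with normal cells 1 gene of the axis was called, *Rgs1*, a brake on G protein signalling, which was higher in CML (log2 2.31, SE 0.35, edgeR adjusted p = 0.0180).

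*Icam1* and *Vcam1* are also made by endothelium, stroma and macrophages, so markers of these cells were read beside them. Summed macrophage and monocyte markers (10 genes) were 48.7 to 192 CPM in normal c-KIThi, 120.4 to 211 CPM in normal c-KITlo, 39.9 to 137 CPM in CML c-KIThi and 60.2 to 115 CPM in CML c-KITlo libraries. Summed endothelial markers (8 genes) were 118 to 227 CPM in c-KIThi and 326 to 1270 CPM in c-KITlo libraries and so moved with *Icam1*. *Vwf* in normal and *Tie1* in CML were the endothelial markers called higher, and *Cdh5* was under 1 CPM in all 12 libraries. *Emcn* had 0.578, 32.0 and 41.0 CPM in normal c-KIThi and 114, 44.9 and 120 CPM in normal c-KITlo libraries, but its mean was lower in CML c-KITlo than in CML c-KIThi cells. *Pecam1* overlapped in normal cells and had 13.5, 11.4 and 25.7 CPM in CML c-KIThi and 68.4, 66.7 and 81.9 CPM in CML c-KITlo libraries. Among 8 stromal markers, sums were 113 to 496 CPM in c-KIThi and 82.2 to 306 CPM in c-KITlo libraries. Most of each sum was *Angpt1*, at 78.5 to 442 CPM. The stromal genes *Cxcl12*, *Lepr*, *Pdgfra* and *Kitl* were at 3.92 CPM or less in all 12 libraries, and *Col1a1* at 7.52 CPM or less. *Col1a2* had 8.26, 4.63 and 13.7 CPM in CML c-KIThi and 39.4, 18.8 and 28.2 CPM in CML c-KITlo libraries, with no overlap. Its order was reversed in normal cells, at 65.8, 6.96 and 14.1 CPM in c-KIThi and 0, 6.15 and 3.33 CPM in c-KITlo libraries. Of the macrophage markers *Csf1r* was called, lower in normal and higher in CML c-KITlo cells, with 4.48 CPM or less outside CML c-KITlo replicate 1, where it had 17 CPM. *C1qb* had 41.2, 15.1 and 10.5 CPM in normal c-KIThi and 72.0, 27.8 and 47.5 CPM in normal c-KITlo libraries, while *C1qc* had a lower mean in the latter. Normal c-KITlo replicate 1 had both the highest macrophage sum (211 CPM) and the highest *Icam1* (221 CPM) of all libraries. Normal c-KIThi replicate 1 had a sum of 192 CPM with 16.3 CPM of *Icam1*. Of the stromal markers *Pdgfrb* was called, lower in normal c-KITlo versus c-KIThi cells and higher in CML versus normal c-KITlo cells, with 1.15 CPM or less in normal and 10.3 to 39.9 CPM in CML libraries. The part of these cells in the *Icam1* and *Vcam1* values was not tested.

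**Figure D4:**
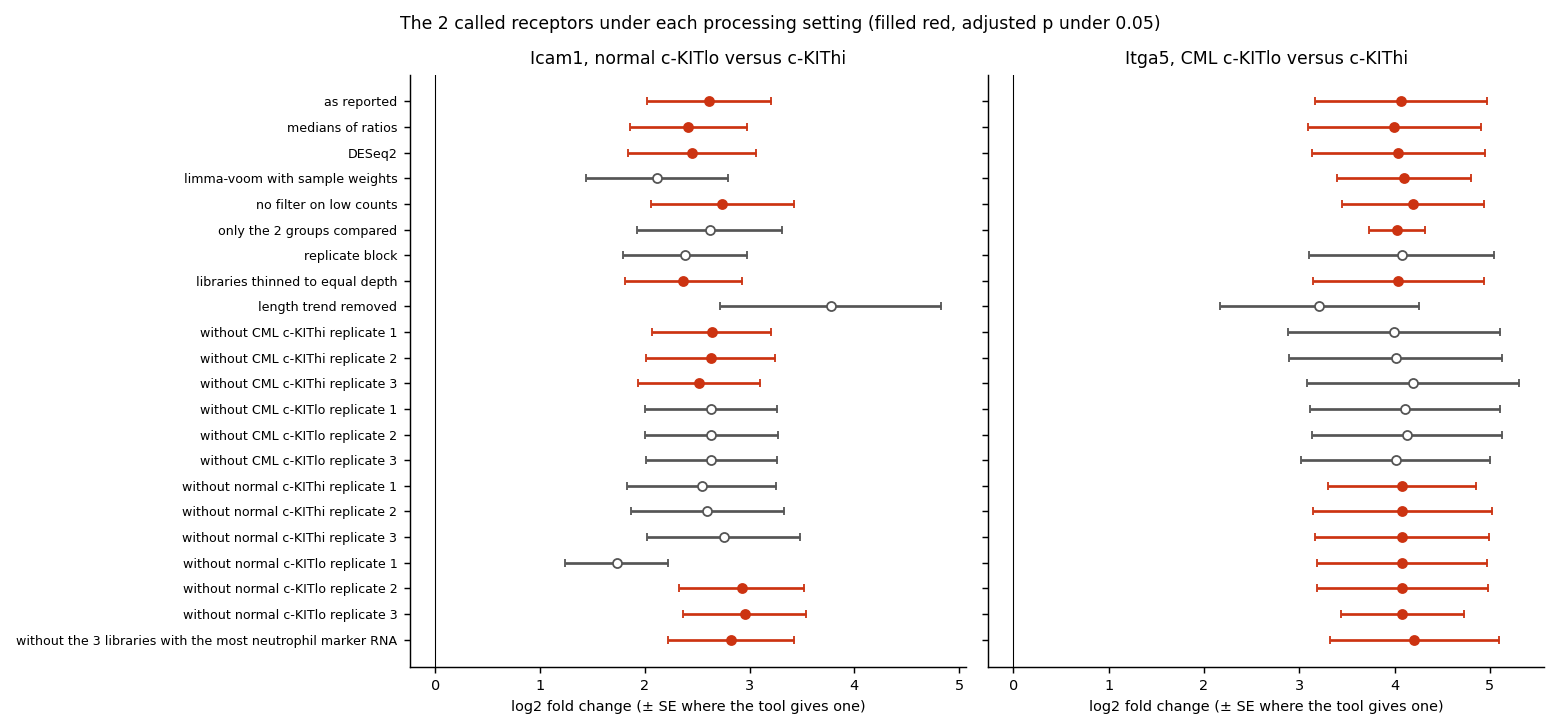
Log2 fold change with its SE of *Icam1* in normal and of *Itga5* in CML c-KITlo versus c-KIThi cells under each processing setting and with each library left out; filled red points have an adjusted p under 0.05. All points lie above 0, from 1.73 to 3.77 for *Icam1* and from 3.21 to 4.21 for *Itga5*, while the calls come and go with the setting.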

How the data were processed

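RNA-Seq was performed on sorted c-KIThi and c-KITlo LT-HSCs from normal and CML mice with a low-input, unstranded kit. The authors' alignment used STAR 2.5.3a, GRCm38 and Gencode M11, and the deposited values are raw HTSeq 0.9.1 counts, whole numbers without normalization; DESeq2 1.22.2 and DRAGEN are also listed in the submitters' processing notes. The labels mention 4 replicates per group, and 3 libraries per group were analysed here. Nothing ties the libraries to single animals, so p-values measure the spread between these libraries.

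Identifiers were matched to symbols and exonic lengths of GENCODE M21, of the same assembly (48435 of 48795 matched). Of HTSeq's entries per library, 39.4% to 75.6% fell in its 5 classes given to no gene, mostly reads with several places, and were left out. Genes were filtered by filterByExpr (14676 kept), scaled by TMM and fitted over all 12 libraries by the quasi-likelihood test of edgeR 4.0.16 under R 4.3.3. Benjamini-Hochberg adjustment covered the whole table, with a threshold of 0.05, and every adjusted p is from edgeR unless another tool is named. CPM was computed on TMM-scaled sizes. The members and lists were chosen with earlier results of these data known. Named genes were the 10 receptors, the called genes of 6 companion lists (at most 4 of a list by smallest p, with others added to complete a count) and 15 defining genes. Some genes that this rule names are not reported here. Profiles were compared by Pearson r, the 3 most alike genes being given for members the results turn on. Promoters came from RefSeq (GRCm38.p6).

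Alternatives were medians of ratios, DESeq2 1.42.0, limma-voom with sample weights (limma 3.58.1), no filter, only the 2 groups compared, a replicate block, libraries thinned to 7753878 counts, each library's lowess trend on exonic length removed (span 0.3), each library left out, and, added after the data were seen, leaving out the 3 libraries with the most neutrophil RNA and 2 averaged comparisons. Leaving out a library leaves a group of 2 that is assumed to vary like the others. Whether replicate numbers pair the samples is not known. Same-numbered libraries had correlations of -0.0384 to 0.102 between their deviations from group means, with 1 of 12 pairs over 0.1. Different-numbered libraries had -0.152 to 0.153. With 3 libraries per group such correlations cannot exclude that same-numbered cells came from the same mice. The fits were tested on simulated counts with the same spread for every gene and library and no difference in make-up between libraries. That test therefore does not cover the uneven libraries analysed here.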

Additional observations from a re-analysis of the deposited data

How the results depend on the processing

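The direction of each receptor's change with an unadjusted p under 0.1 was kept under every alternative run, except that of *Cd44* in CML versus normal averaged over c-KIT levels, which was -0.68 with the length trend removed. The number of receptors called in normal c-KITlo versus c-KIThi cells (1 as reported) was 3 with DESeq2, 2 with no filter and 2 without the 3 neutrophil-rich libraries, and 0 with limma-voom, with only the 2 groups compared, with the replicate block and with the length trend removed. In CML (1 as reported) it was 4 with limma-voom, 2 with DESeq2 and 2 with only the 2 groups compared, and 0 with the replicate block and with the length trend removed. It ranged from 0 to 2 in both over single-library omissions. The averaged c-KITlo versus c-KIThi comparison (3 as reported) gave 1 with the length trend removed and 2 to 3 over single-library omissions, and the averaged CML versus normal comparison (0 as reported) gave 2 with DESeq2. In both comparisons of CML with normal cells and in the interaction the number called was 0 under every alternative. Samples share only a number, and whether it marks shared mice is not known. With the replicate block, calls among all genes became 199 in place of 954 in normal and 430 in place of 1238 in CML. The edgeR adjusted p was then 0.0641 for *Icam1* in normal and 0.0511 for *Itga5* in CML. Removing the length trend left 49 calls among all genes in normal and 0 in CML, and moved the median of all genes in normal from 0.16 to 0.53 (log2), while medians of ratios moved it to 0.02. Receptors under about 10 CPM, such as *Vcam1* and *Alcam*, rest on few counts (3 to 340 per library for *Vcam1*), and differences of the size seen in them could not be told from the spread between libraries.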
